A study of Homo sapiens
Mus musculus with 17 samples.

Results

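The departure from additivity between alpelisib and nintedanib was measured in 17 xenograft tumours, all the tumours of the series, each as 1 bulk RNA library. VM-CUB-1, an established line of human bladder carcinoma, had been implanted into Hsd:Athymic Nude-Foxn1nu mice, which lack a thymus and therefore most mature T cells. Treatment lasted 7 days. The vehicle arm (methylcellulose with Tween80) has 4 tumours, as does the alpelisib arm, dosed at 25 mg/kg. The nintedanib arm, dosed at 40 mg/kg, has 5 tumours, and the combination arm, given both drugs at those doses, has 4. Human reads stem mainly from the carcinoma and mouse reads mainly from the host stroma, and each species has its own table of normalized counts. For each gene the departure is the log2 level in the combination minus that in alpelisib, minus that in nintedanib, plus that in vehicle, on log2(normalized count + 1). A value of 0 means that the fold changes of the single drugs multiply, and the level this gives for the combination is called the additive level below. A negative value means that the combination lay below the additive level, and a positive value that it lay above. Every gene whose mean over the 17 libraries reached 10 normalized counts was tested, which left 14533 of 23368 human and 11831 of 23337 mouse genes. The 5 nintedanib tumours form 1 arm: the titles call 3 of them responders and 2 non-responders, while the series text gives these numbers the other way round.

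Alpelisib blocks p110-alpha, the catalytic subunit of PI3K that PIK3CA encodes, which acts downstream of receptor tyrosine kinases. When PI3K signalling is blocked, FOXO transcription factors move into the nucleus and switch on genes of growth arrest and of fuel use, and receptors held down by feedback can come back. Nintedanib inhibits the receptors for VEGF, FGF and PDGF, which endothelial cells, pericytes and fibroblasts of a tumour use, and FGF receptors are also active in many urothelial carcinomas. Because the targets of both drugs lie on connected pathways, one drug can leave less for the other to do, or remove a feedback that limits it. The 2 x 2 design addresses this by asking whether the nintedanib effect is the same with and without alpelisib.

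The recovered reads numbered 7429753 to 25654879 per library in human and 2271764 to 7438823 in mouse. A few libraries stood apart. Reads under Rn45s, the ribosomal RNA precursor, and Lars2 together took 72.9% of the mouse reads of Vehicle 3, 60.1% of Combination 4, 44.1% of Alpelisib 3 and 42.1% of Combination 1, against a median of 13.7%. Vehicle 3 also had the lowest library weight in both species, 0.158 in human and 0.180 in mouse. The human reads carried basal carcinoma keratins in every arm, with mean levels of KRT5 from 68655 in vehicle to 137117 in the combination. The mouse reads carried endothelial markers, with mean levels of Pecam1 from 368 in the combination to 833 in vehicle. Human PECAM1 and PTPRC, markers of endothelial and blood cells, did not reach the expression minimum. Mouse Krt14, an epithelial keratin, did reach it, and all 15 tested mouse genes of the list of tumour and skin keratin genes have more human than mouse reads.

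No gene in either species departed from additivity at an adjusted p under 0.05 (limma, Benjamini-Hochberg over all tested genes), which is 0% of the human and 0% of the mouse genes. The smallest adjusted p (limma) was 0.629 in human and 0.814 in mouse. At an unadjusted p under 0.05, 680 human genes were negative (4.68% of those tested) and 390 were positive (2.68%). In mouse 352 genes were negative (2.98%) and 265 positive (2.24%). Whatever the p, the departure was negative in 7840 of 14533 human and 6281 of 11831 mouse genes. edgeR's quasi-likelihood test on the recovered reads also gave 0 genes in both species, with 1062 human and 624 mouse genes at an unadjusted p under 0.05. DESeq2 gave 0 as well, with 1226 and 707 such genes, and limma-voom gave 0 with 988 and 506. The share of negative genes at that p varied with the processing. In human it was 63.6% in the main fit, 53.6% with TMM scaling, 52.1% with library weights, 47.5% without Combination 2 and 78.9% without Combination 1. In mouse it was 57.1% in the main fit, 48.6% in edgeR, 47.7% in DESeq2, 45.0% with a replicate block and 69.3% without Alpelisib 4. The unadjusted limma count depended on single libraries. In human it was 2342 without Combination 2, 1977 without nintedanib responder 2 and 1674 without Vehicle 4, and 514, 607 and 627 without Combination 3, nintedanib responder 1 and Alpelisib 4. In mouse it was 1194 without Combination 2 and 1012 without Vehicle 4, and 324, 383 and 398 without Combination 3, Vehicle 3 and nintedanib responder 1. The design limits what could be seen: the median 95% confidence interval reached 0.776 log2 units to either side in human and 0.872 in mouse. This interval is not adjusted for the number of genes, so a departure of that size reaches only an unadjusted p of about 0.05 in limma. A larger departure was needed to pass the adjusted threshold, and the 0% that passed does not exclude departures above this size. Whether the tumours of an arm came from separate mice is not given in the labels, so each p-value reflects only the variation among these 17 tumours. The genes named below that do not pass are given as measured values.

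The nintedanib effect can be read in 2 ways in this design, as nintedanib minus vehicle and as combination minus alpelisib, and these contrasts share no library. In mouse reads 21 genes (0.177% of those tested) passed in nintedanib minus vehicle and 1 gene (0.00845%) passed in combination minus alpelisib, at a limma adjusted p under 0.05. In human reads 0% passed in either, with 1120 and 714 genes at an unadjusted p under 0.05 in limma. Of the 21 mouse genes, 20 had the same sign when nintedanib was added to alpelisib, 19 of them with an unadjusted p under 0.05 in limma. Their median log2 difference was -1.97 without alpelisib and -1.35 with it. Genes chosen for a small p in the first contrast tend to have large values there, so a smaller median in the other is built into this choice. In 1 of the 21, Apln, the decrease was the larger one with alpelisib. The number passing in nintedanib minus vehicle was 8 without Vehicle 1, 11 without nintedanib responder 1 and 32 without Alpelisib 1. It was 13 without any 1 of Vehicle 3, Vehicle 4, nintedanib non-responder 2, Combination 3 and Combination 4.

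**Figure D1:**
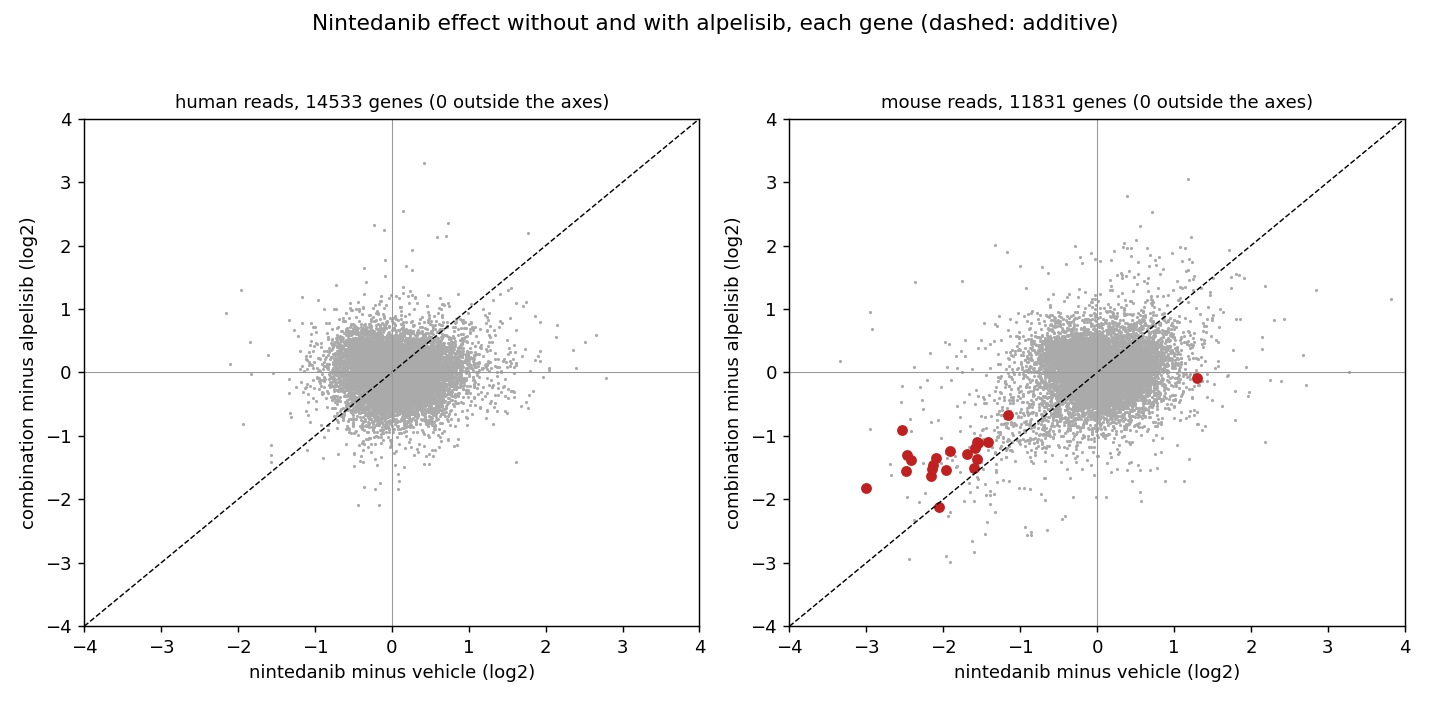
Each grey point is 1 tested gene, with its log2 difference nintedanib minus vehicle on the x axis and combination minus alpelisib on the y axis, for human (left) and mouse (right) reads. The dashed line marks additivity. Red points are the 21 mouse genes that passed in nintedanib minus vehicle (limma adjusted p under 0.05); 20 of them lie below 0 on both axes and 1, C1s, lies right of 0.

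Across all tested genes the 2 readings of the nintedanib effect followed each other weakly in mouse (Pearson 0.24, Spearman 0.09) and not in human (Pearson -0.05, Spearman -0.12). The 2 readings of the alpelisib effect, alpelisib minus vehicle and combination minus nintedanib, had a Pearson correlation of 0.23 in both species, with Spearman values of 0.18 in human and 0.17 in mouse. These are correlations across genes of the same tumours, and genes are not independent replicates.

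Of the 20 genes of the mouse reads that fell under nintedanib, 6 stand in the list of tip cell and angiogenic genes and 2 in the endothelial list. Another 3 (Clca5, Kcnj2 and Spry4) stand in the list of receptor kinase feedback, 1 (Kif20a) in the cell cycle list, and 8 in no list. These lists hold 30, 32, 25 and 35 of the 11831 tested genes, and they were chosen with earlier results of these data known. Most of their genes share a name with a human gene. Of these, 9 of 29, 2 of 32, 18 of 24 and 35 of 35 have more human than mouse reads, in that order. Apln, of the tip cell list, encodes apelin, a peptide that sprouting tip cells secrete. It measured 370, 423, 519 and 606 normalized counts in vehicle and 112, 439, 487 and 616 in alpelisib. It measured 62.9, 109, 117, 150 and 151 in nintedanib and 52.3, 72.3, 86.1 and 120 in the combination. All nintedanib tumours lay below all vehicle tumours, and the combination overlapped alpelisib only through Alpelisib 1. The log2 difference was -2.05 ± 0.39 (SE) without alpelisib (limma adjusted p = 0.0386) and -2.13 ± 0.41 with it. The departure was -0.07 with a 95% interval from -1.27 to 1.12, which does not exclude a departure of more than 1 log2 unit in either direction.

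Dll4, the Notch ligand of tip cells, measured 152, 215, 229 and 248 in vehicle and 39.3, 52.2, 55.6, 57.9 and 71.8 in nintedanib. It measured 79.4, 232, 249 and 264 in alpelisib and 63.6, 70.6, 83.7 and 99.6 in the combination. Nintedanib and vehicle did not overlap, and in alpelisib the lowest tumour, Alpelisib 1, lay within the range of the combination. The log2 differences were -1.91 without alpelisib (limma adjusted p = 0.00808) and -1.25 with it, with a departure of 0.67 ± 0.43 (SE). Alpelisib 1 was also the low tumour of its arm for Spry4, Notch4, Mmrn2, Bcl6b, Apold1, Pcdh12 and Exoc3l. Without it the departure moved to -0.62 for Apln and to 0.26 for Dll4.

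The receptors that nintedanib blocks were themselves measured. Flt4, the receptor for VEGF-C, measured 76.2, 122, 131 and 271 in vehicle and 63.1, 75.5, 85.7 and 149 in alpelisib. It measured 20.6, 25.1, 33.4, 35.1 and 45.9 in nintedanib and 24.9, 30.7, 34.2 and 51.7 in the combination. Every tumour that received nintedanib lay below every tumour that did not. The log2 differences were -2.09 without alpelisib (limma adjusted p = 0.00844) and -1.35 with it, with a departure of 0.74 ± 0.49 (SE), which was 0.41 without Vehicle 3, the tumour at 271. Flt1, another VEGF receptor, differed by -1.26 and -1.19 (departure 0.07), and Kdr, the main signalling receptor for VEGF-A, by -1.22 and -0.82 (departure 0.40, and 0.11 without Vehicle 3). Neither passed in nintedanib minus vehicle (limma adjusted p = 0.215 and 0.356). For Pdgfrb, the PDGF receptor of pericytes, and Fgfr1 the departures were -0.24 and -0.20, with single-drug and combination means of 614 to 627 for Pdgfrb against 518 in vehicle.

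Over the 32 endothelial genes the median difference was -0.89 without alpelisib and -0.84 with it, and the median departure was 0.05, with 18 positive and 14 negative. This median lay between -0.11 and 0.18 as single libraries were left out. With the 4 libraries rich in ribosomal RNA left out it was 0.20, with 24 positive, and the nintedanib medians were -0.83 and -0.64. Over all tested mouse genes the median departure was -0.04 with all libraries and 0.02 without those 4. The 30 genes of tip cells and angiogenesis had medians of -0.77 and -0.66 and a median departure of 0.30, with 22 positive. In both lists 0 genes had an unadjusted p under 0.05 for the departure in limma with all libraries. Without those 4 libraries 1 gene did in each list, on the positive side. In bulk tumours, fewer cells of a type and less RNA per cell cannot be told apart. Without Vehicle 3, whose level of the tip cell list was the highest of all tumours, the median departure of that list was 0.09. It was 0.14 without Alpelisib 1, 0.18 without nintedanib non-responder 2 and 0.16 without Combination 1.

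Among the 21 mouse genes that passed, 3 had a departure at an unadjusted p under 0.05 in limma, each with an adjusted p of 0.814 or above. C1s encodes a protease of the classical complement pathway. It measured 399, 422, 451 and 668 in vehicle, 527, 674, 723 and 831 in alpelisib, and 495, 565, 698 and 852 in the combination. In nintedanib it measured 661, 1066, 1275, 1363 and 1780. In 4 of the 5 nintedanib tumours the level lay above every tumour of the other arms. The log2 difference was 1.30 ± 0.26 (SE) without alpelisib (limma adjusted p = 0.045) and -0.09 ± 0.27 with it, and the departure was -1.39 ± 0.38. Over all libraries 15047 mouse and 68481 human reads carry the name of C1s.

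Kcnj2, an inward rectifier potassium channel, measured 66.6, 104, 160 and 184 in vehicle and 23.3, 89.0, 131 and 165 in alpelisib. It measured 15.5, 17.6, 19.4, 23.5 and 24.2 in nintedanib and 28.2, 46.1, 47.4 and 56.6 in the combination. All combination tumours lay above all nintedanib tumours and below all vehicle tumours. The log2 difference was -2.54 without alpelisib (limma adjusted p = 0.0123) and -0.91 with it, a departure of 1.62 ± 0.62 (SE). The departure was 1.03 without Alpelisib 1. Clca5 measured 29.2 to 163 in vehicle, 35.4 to 46.7 in alpelisib, 4.84 to 8.81 in nintedanib and 7.48 to 13.5 in the combination. Every tumour with nintedanib lay below every tumour without it, with log2 differences of -3.01 and -1.81 and a departure of 1.19 ± 0.57 (SE). The departure was 0.73 without Vehicle 3, the tumour at 163, and its unadjusted limma p stayed under 0.05 in 6 of the 17 fits that each left out 1 library.

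**Figure D2:**
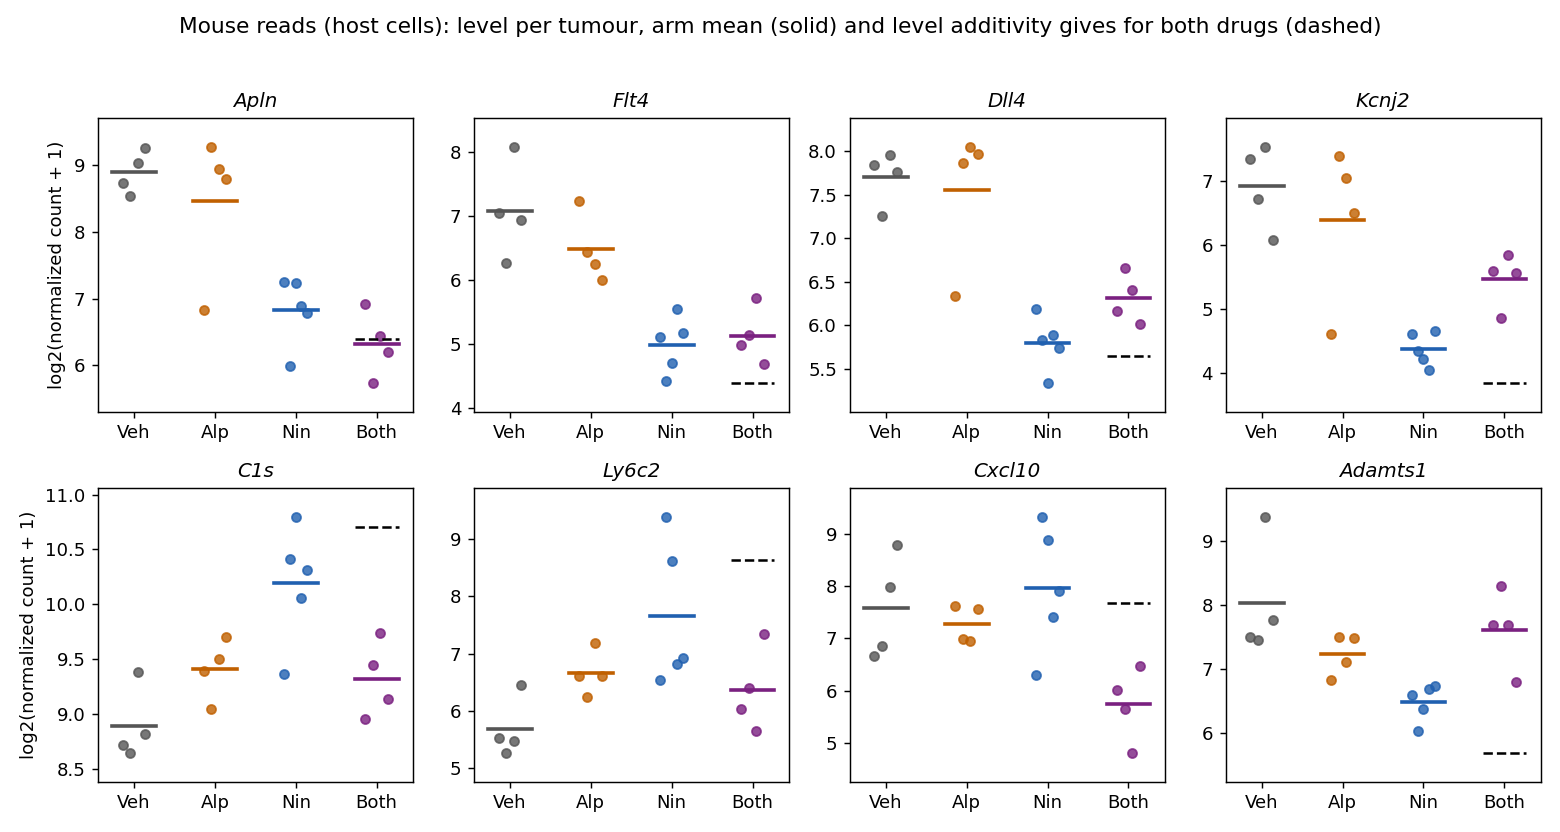
Points are single tumours in the vehicle (Veh), alpelisib (Alp), nintedanib (Nin) and combination (Both) arms, with the mouse level as log2(normalized count + 1) on the y axis. Solid bars are arm means and the dashed bar is the additive level for the combination. Apln in the combination lies at its additive level (departure -0.07), while C1s, Ly6c2 and Cxcl10 lie below it and Kcnj2 and Adamts1 above it.

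The alpelisib effect was read in the same way. In alpelisib minus vehicle 0% of the human and 0% of the mouse genes passed (limma adjusted p under 0.05), with 2854 and 1329 genes at an unadjusted p under 0.05. In combination minus nintedanib 0% of the human and 0.00845% of the mouse genes passed, with 627 and 872 at an unadjusted p under 0.05 in limma. The 1 mouse gene was 8430408G22Rik, an unnamed gene model that the list of FOXO and PI3K feedback targets holds and that was chosen after its values were seen. It measured 11.5, 13.3, 19.6 and 22.1 in vehicle and 15.6, 38.5, 55.8 and 132 in alpelisib. It measured 4.84, 5.74, 6.10, 6.24 and 7.42 in nintedanib and 25.1, 52.9, 65.4 and 77.3 in the combination. All combination tumours lay above all vehicle tumours, and all nintedanib tumours lay below those of every other arm. The alpelisib effect was 1.47 log2 units alone and 2.89 ± 0.45 (SE) on top of nintedanib (limma adjusted p = 0.046), a departure of 1.42 ± 0.65, which was 0.92 without Alpelisib 1. No gene passed in combination minus nintedanib with TMM scaling, or when any 1 tumour other than Vehicle 3, Alpelisib 1, Alpelisib 3 or Combination 1 was left out.

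The gene that passed in combination minus alpelisib was D930048N14Rik, another unnamed model chosen after its values were seen. It measured 27.5, 28.0, 28.3 and 29.7 in alpelisib and 2.46, 4.64, 4.99 and 5.03 in the combination. It measured 15.9, 18.4, 23.4 and 25.1 in vehicle and 5.74, 7.42, 11.5, 14.5 and 19.5 in nintedanib. The combination lay below, and alpelisib above, every tumour of the other arms. The log2 difference was -0.86 without alpelisib and -2.51 ± 0.37 (SE) with it (limma adjusted p = 0.0204), and the departure was -1.65 ± 0.51. No gene passed in combination minus alpelisib without Alpelisib 2, 3 or 4 or without any 1 of the combination tumours, and 12 passed without Alpelisib 1.

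In human reads, squamous differentiation genes had higher median levels with either drug than in vehicle, and the medians with both drugs were little above those with 1. This programme makes the cornified outer layer of stratified epithelia, and bladder carcinomas of the basal type can express it. Of 34 tested genes 33 had a negative departure, with a median of -1.14 against -0.05 over all human genes. The median nintedanib effect was 1.22 without alpelisib and 0.07 with it, and the median alpelisib effect was 1.41 without nintedanib and 0.33 with it. In 29 of the 34 genes vehicle was the arm farthest from the other 3, as it was in 48.9% of all tested human genes. None of the 34 had an unadjusted p under 0.05 for the departure in limma, against 4.68% of all human genes on the negative side. These genes were measured in the same tumours and are not independent of each other.

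The level of this list, taken as the median of the gene-centred log2 values in a tumour, was -1.89, -1.70, -0.74 and -0.10 in vehicle and 0.08, 0.36, 0.49 and 0.82 in alpelisib. It was -1.48, -0.22, 0.39, 0.57 and 1.39 in nintedanib and -0.08, 0.10, 1.01 and 1.03 in the combination. All alpelisib and combination tumours lay above all vehicle tumours, while the nintedanib tumours spanned nearly the whole range. Without Vehicle 3 the median departure was -1.21, and with the 4 libraries rich in ribosomal RNA left out it was -0.69, with 31 of 34 negative.

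KRTDAP, a secreted protein of differentiating keratinocytes, measured 1061, 1278, 1284 and 3368 in vehicle and 4945, 7121, 8638 and 9476 in alpelisib. It measured 1594, 3844, 11746, 13290 and 16140 in nintedanib and 8042, 10824, 15554 and 16631 in the combination. Alpelisib and the combination did not overlap vehicle, whereas 1 nintedanib tumour lay within it. Its departure was -1.40 ± 0.77 (SE), with a 95% interval from -3.01 to 0.21 (limma adjusted p = 0.629). KRT10, a keratin of suprabasal cells, had a departure of -0.85 and SPRR2D, a precursor of the cornified envelope, of -1.75. KRT6B, a keratin of activated keratinocytes that stands in the basal list, had -1.77 (limma adjusted p = 0.629). Over the 20 basal genes the median was -0.35, with 16 negative. It ran from -0.71 without Vehicle 3 to -0.07 without Vehicle 2, and moved by over 1.5 times also without Alpelisib 1, Alpelisib 4, nintedanib non-responder 1, nintedanib responder 1 or Combination 4. It was -0.57 without the 4 libraries rich in ribosomal RNA.

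HOPX, a small homeodomain protein of differentiating epithelia, had the largest negative departure among the 6 human genes with the smallest p on that side. It measured 73.4, 77.8, 96.3 and 138 in vehicle, 261, 331, 344 and 467 in alpelisib, and 162, 167, 387, 413 and 704 in nintedanib. It measured 148, 214, 278 and 425 in the combination. Every treated tumour lay above every vehicle tumour, and the combination overlapped both single-drug arms. The differences from vehicle were 1.87 with alpelisib and 1.74 with nintedanib (limma adjusted p = 0.173 and 0.594). The departure was -2.21 ± 0.55 (SE), with a limma adjusted p of 0.629. It lay between -2.47 and -1.92 when each library was left out in turn.

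**Figure D3:**
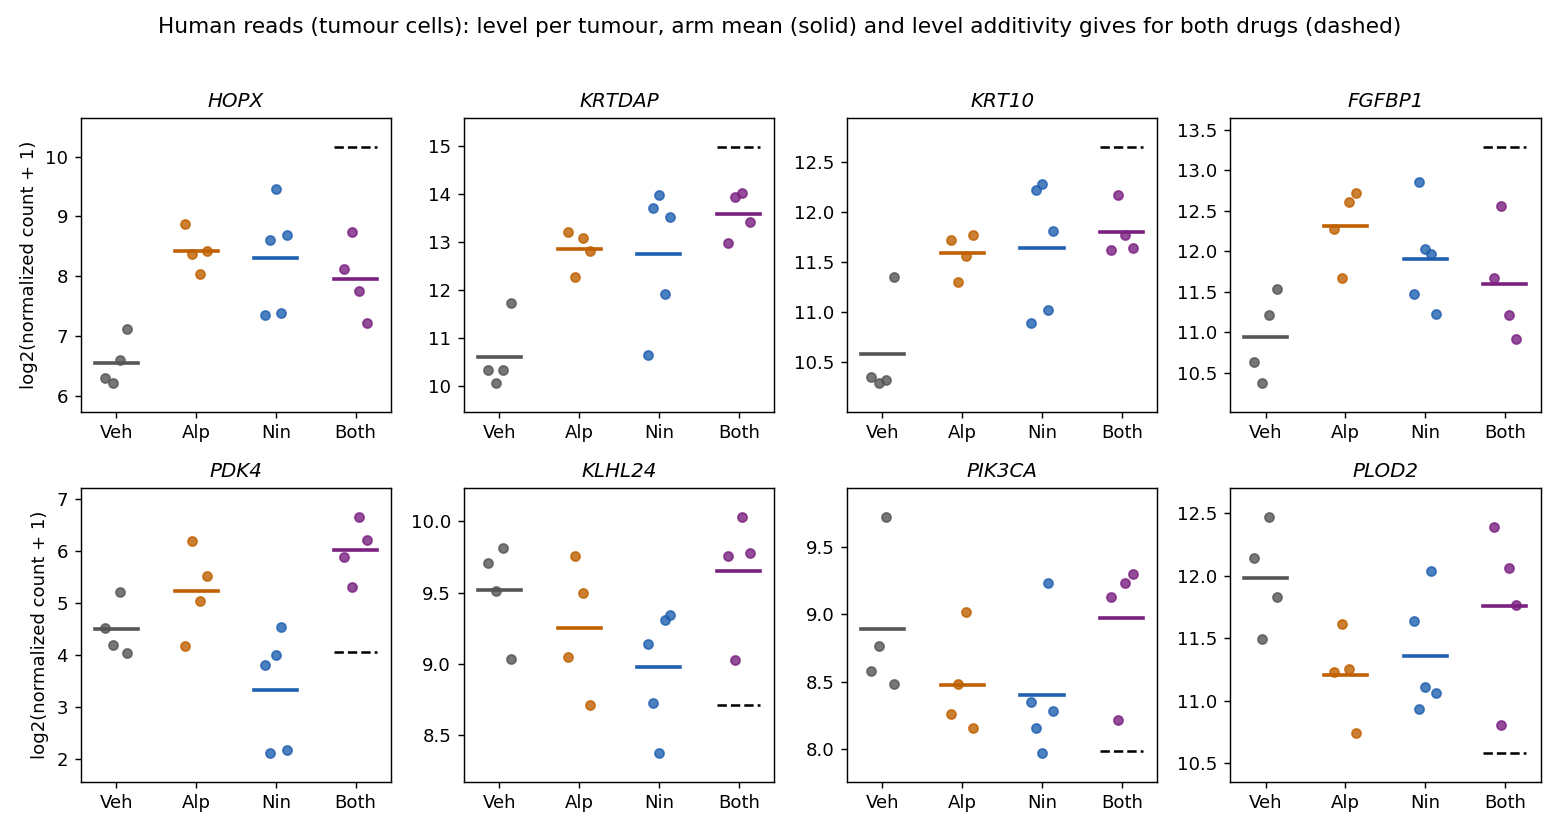
Points are single tumours in the vehicle (Veh), alpelisib (Alp), nintedanib (Nin) and combination (Both) arms, with the human level as log2(normalized count + 1) on the y axis. Solid bars are arm means and the dashed bar is the additive level for the combination. In the top row (HOPX, KRTDAP, KRT10, FGFBP1) all combination tumours lie below the dashed bar, and in the bottom row (PDK4, KLHL24, PIK3CA, PLOD2) all lie above it.

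FGFBP1, a secreted protein that releases FGF from the matrix, belongs to the list of angiogenic ligands. It measured 1327, 1588, 2375 and 2958 in vehicle and 3250, 4952, 6271 and 6761 in alpelisib. It measured 2397, 2850, 4013, 4180 and 7430 in nintedanib and 1937, 2375, 3275 and 6067 in the combination. Alpelisib did not overlap vehicle, but the combination overlapped all other arms. The nintedanib difference was 0.97 without alpelisib and -0.72 with it, a departure of -1.70 ± 0.51 (SE, limma adjusted p = 0.629). The 22 angiogenic ligands had a median departure of -0.39 with 16 negative, and a median of -0.10 without nintedanib responder 1 or Vehicle 2, -0.18 without Alpelisib 1 and -0.25 without Combination 4. VEGFA, the main ligand of Kdr, had a departure of -0.36 with a 95% interval from -1.64 to 0.91. PDGFD stood on the other side with 1.14.

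Genes that follow ERK signalling lay below the additive level in 28 of 30 cases, with a median departure of -0.50, which was -0.21 without nintedanib responder 1 and -0.30 without Vehicle 2. Their median nintedanib effect was 0.12 without alpelisib and -0.28 with it. ETV4, a transcription factor induced by FGF signalling, had -0.74 and SPRY2, a feedback inhibitor of receptor kinases, had -0.71, both with a limma adjusted p of 0.629. In both genes the combination overlapped the other arms, at 86.8 to 116 for ETV4 and 122 to 195 for SPRY2. DUSP6, a phosphatase that ERK induces, had -0.65 and EGR1, an immediate early gene, had -0.24, while CCND1, the D-type cyclin, had 0.22. In this list 2 of 30 genes had an unadjusted p under 0.05 in limma, both negative, against 4.68% of all human genes on that side. Of 25 chemokines and cytokines 23 were negative, with a median of -0.54, which was -0.30 without nintedanib responder 1. IL6, a cytokine of the acute phase, had -2.33 ± 1.01 (SE), on low levels of 0 to 18.1 in vehicle and 5.82 to 42.6 in the combination, and this value ranged from -2.84 to -1.39 as single libraries were left out.

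**Figure D4:**
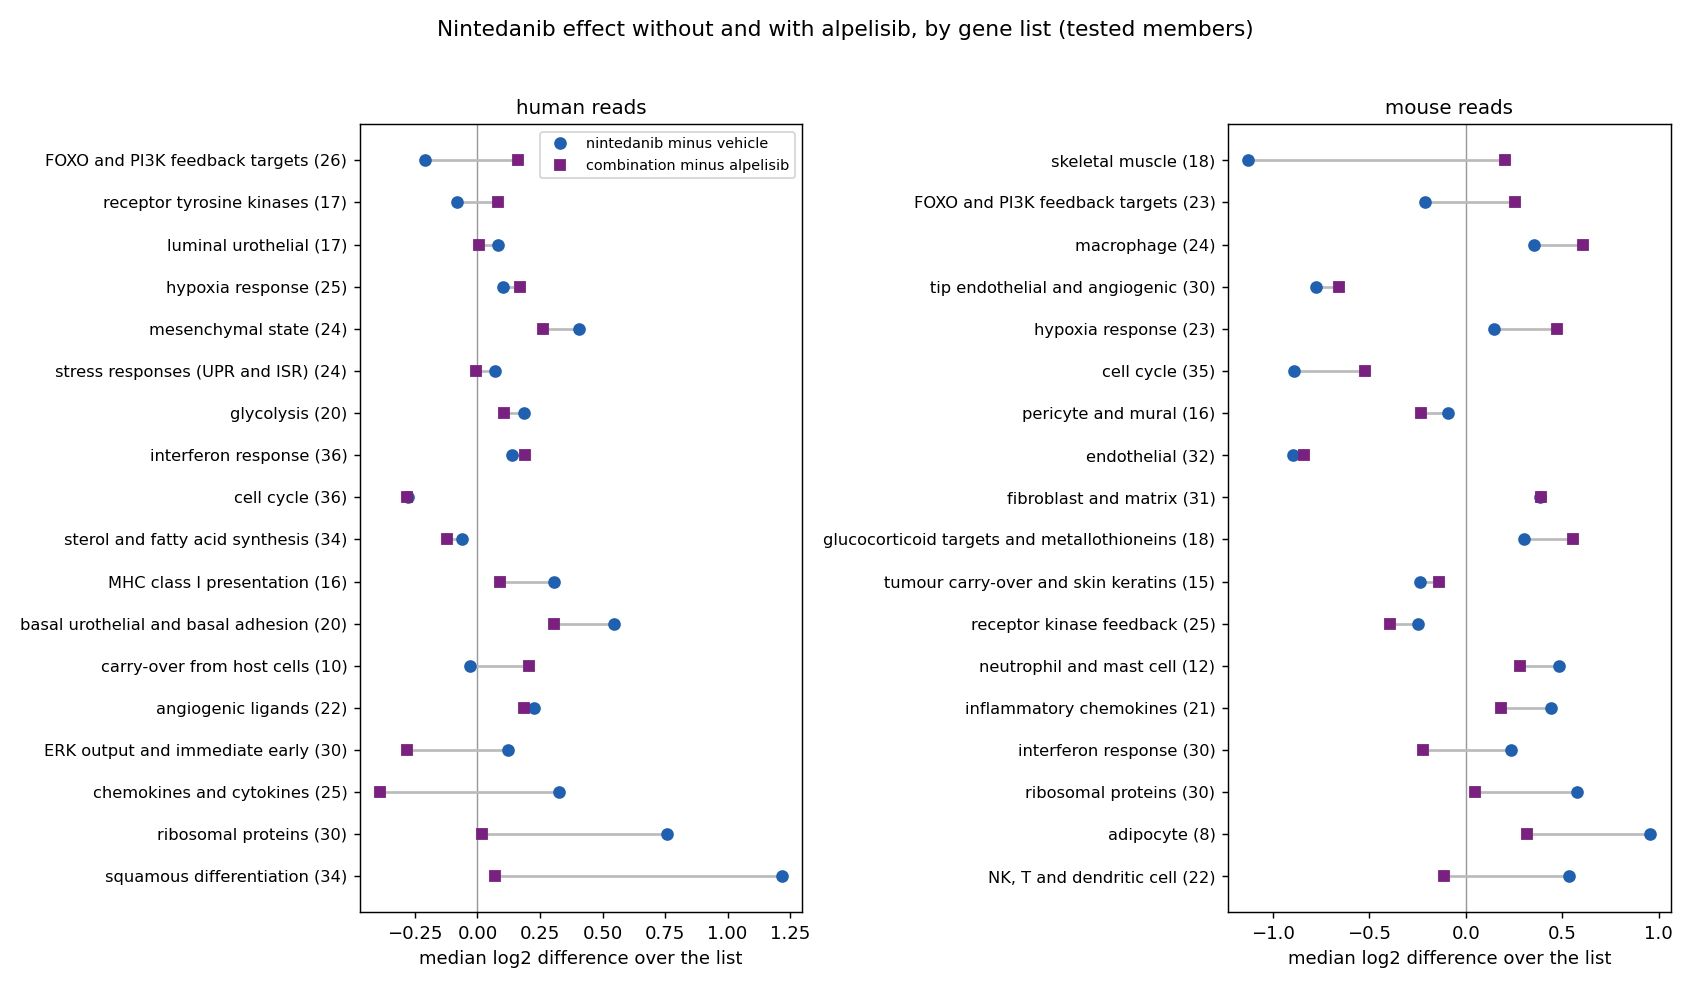
For each gene list, with its number of tested genes in parentheses, the circle is the median log2 difference nintedanib minus vehicle and the square is that of combination minus alpelisib. Human lists are on the left and mouse lists on the right, ordered by their median departure. Squamous differentiation moves from 1.22 to 0.07 and the endothelial list stays at -0.89 and -0.84.

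Departures above the additive level were found in targets of FOXO and PI3K feedback. Of 26 human genes 19 were positive, with a median of 0.27, and 3 had an unadjusted p under 0.05 in limma, all positive (background 2.68%). The median nintedanib effect was -0.21 without alpelisib and 0.16 with it. PDK4, the kinase that shuts down pyruvate dehydrogenase, measured 15.4, 17.2, 21.9 and 36.1 in vehicle and 17, 31.7, 44.5 and 72.1 in alpelisib. It measured 3.29, 3.46, 13, 14.8 and 22 in nintedanib and 38.6, 57.5, 73.2 and 99.7 in the combination. The combination lay above all vehicle and all nintedanib tumours. The alpelisib effect was 0.74 alone and 2.70 on top of nintedanib, and the departure was 1.96 ± 0.73 (SE, limma adjusted p = 0.629). KLHL24, a ubiquitin ligase adaptor, had 0.94 and PDCD4, a translation inhibitor that S6 kinase degrades, had 0.68. GADD45A, a stress gene, had -0.65. With the 4 libraries rich in ribosomal RNA left out, 20 of the 26 genes were positive with a median of 0.21, and 0 had an unadjusted p under 0.05 in limma. The median was 0.11 without Alpelisib 1, 0.15 without nintedanib non-responder 2 and 0.16 without Alpelisib 3.

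The drug target of alpelisib had the same sign in both species. PIK3CA measured 357, 382, 435 and 845 in vehicle, 285, 306, 357 and 517 in alpelisib, and 250, 285, 311, 325 and 600 in nintedanib. It measured 297, 559, 600 and 630 in the combination. The arms overlapped, with 3 of 4 combination tumours above all alpelisib tumours. The departure was 0.98 ± 0.43 (SE, limma adjusted p = 0.629), and 0.70 without Vehicle 3. Mouse Pik3ca had 0.96 ± 0.38 (SE, limma adjusted p = 0.814), and 7565 human against 3078 mouse reads carry this name. Whether the values of the 2 species are independent was not tested. PIK3CB, the beta isoform, had 0.67. ERBB3, a receptor that rises when PI3K is blocked in many cell lines, measured 984 to 1272 in the combination and had a departure of 0.08 with a 95% interval from -0.34 to 0.50. FGFR3 and FGFR1 had -0.53 and -0.25, and IRS2 did not reach the expression minimum in human reads.

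In mouse reads 19 of 23 FOXO and PI3K feedback targets were positive, with a median of 0.33 and 3 at an unadjusted p under 0.05 in limma (background 2.24%). The 19 and the 3 both include 8430408G22Rik (departure 1.42), the unnamed model chosen after its values were seen. These counts are therefore not independent of that choice. Of these 23 genes 20 have more human than mouse reads. Fbxo32, a ubiquitin ligase of muscle wasting, measured 111, 111, 129 and 158 in the combination, against 64.1 to 127 in vehicle, 82.5 to 104 in alpelisib and 70.1 to 88.3 in nintedanib. Its combination tumours lay above all single-drug tumours and overlapped vehicle, with a departure of 0.76 ± 0.30 (SE). Irs2, the insulin receptor substrate, had 2.29 ± 0.90 (SE) on low levels, from 1.18 to 9.62 in alpelisib and 6.23 to 35.3 in the combination. Over all libraries 206 mouse and 8 human reads carry the name of Irs2. With the 4 libraries rich in ribosomal RNA left out, 14 of the 23 genes were positive and 1 had an unadjusted p under 0.05 in limma. Without Combination 3 the median of the list was 0.20.

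**Figure D5:**
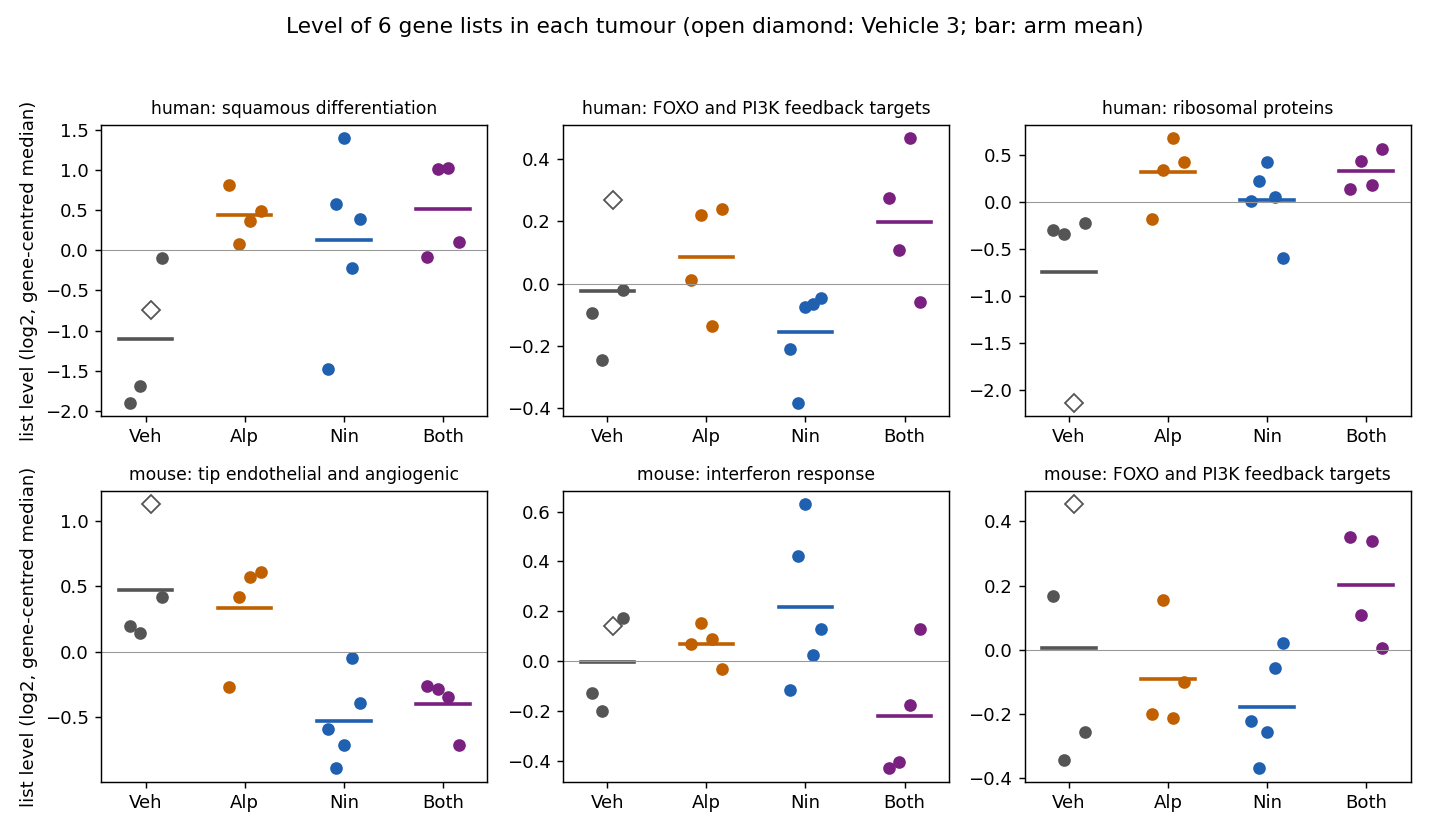
Each point is the level of a gene list in 1 tumour (median of gene-centred log2 values), by arm, and bars are arm means. The open diamond is Vehicle 3. It is the lowest tumour for human ribosomal proteins (-2.13) and the highest for the mouse tip cell list (1.13).

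The 25 human hypoxia genes had a median departure of -0.03, with 11 positive and 14 negative, between -0.19 and 0.23 as single libraries were left out. The 2 members with the smallest p were PLOD2 and P4HA1. PLOD2, which hydroxylates collagen lysines, measured 2890, 3635, 4523 and 5679 in vehicle and 1709, 2399, 2447 and 3128 in alpelisib. It measured 1958, 2133, 2213, 3180 and 4205 in nintedanib and 1795, 3473, 4273 and 5360 in the combination. Both single-drug arms overlapped vehicle slightly, and 3 of 4 combination tumours lay within the vehicle range. The departure was 1.18 ± 0.43 (SE, limma adjusted p = 0.629), and P4HA1, which hydroxylates prolines, had 0.95. Mouse Plod2 had 1.23, and 56893 human against 4920 mouse reads carry its name.

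The 6 human genes with the smallest p on the positive side were GPC6, CLGN, PION, C3, ABAT and MUC16, all with a limma adjusted p of 0.629. CLGN, a chaperone of the endoplasmic reticulum, measured 131, 180, 199 and 235 in vehicle and 66.7, 77.2, 77.6 and 90.2 in alpelisib. It measured 65.2, 99.7, 112, 176 and 196 in nintedanib and 79.6, 137, 206 and 216 in the combination. Alpelisib lay below all vehicle tumours, whereas 3 of 4 combination tumours lay in the vehicle range. The departure was 1.53 ± 0.46 (SE). C3, the central complement protein, had 1.12 and measured 4949 to 6422 in the combination, above every alpelisib tumour (2278 to 4055). MUC16, a large membrane mucin, had 1.44, with means of 2432 in vehicle, 902 in alpelisib, 1260 in nintedanib and 1307 in the combination. GPC6, a heparan sulfate proteoglycan, had 0.98, ABAT, the enzyme that degrades GABA, had 1.23, and PION had 1.26.

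On the negative side the 6 genes were PPIL1, HOPX, MRPL15, NDUFA6, CSRP2 and TM4SF1. TM4SF1, a membrane protein of the tetraspan type, measured 792, 803, 904 and 1183 in vehicle and 1274, 2416, 2426 and 2510 in alpelisib. It measured 1054, 1102, 1323, 1945 and 2028 in nintedanib and 657, 903, 1030 and 2150 in the combination. Alpelisib did not overlap vehicle, while 3 of 4 combination tumours lay within or below the vehicle range. The departure was -1.62 ± 0.44 (SE, limma adjusted p = 0.629). MRPL15, a protein of the mitochondrial ribosome, had -1.15 ± 0.29 and NDUFA6, a subunit of respiratory complex I, had -1.16 ± 0.31 (SE). PPIL1, a prolyl isomerase of the spliceosome, had -0.87 ± 0.21 (SE), and CSRP2, a LIM domain protein, had -1.15.

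Because MRPL15 and NDUFA6 were among these, the families they belong to were looked up after their values were seen, and no test was made of them. Of 81 human subunits of the respiratory chain and ATP synthase 79 were negative, with a median departure of -0.75. The median nintedanib effect was 0.58 without alpelisib and -0.16 with it. Of 76 proteins of the mitochondrial ribosome 74 were negative, with a median of -0.64. All 30 cytosolic ribosomal proteins were negative too, with a median of -0.67, and RPL11, of the large subunit, had -1.37 ± 0.46 (SE). Vehicle 3 stood at -2.13 for the ribosomal protein level, against -0.34 to -0.22 in the other vehicle tumours. Without it the medians were -0.36, -0.36 and -0.27, and with the 4 libraries rich in ribosomal RNA left out they were -0.20, -0.27 and -0.14. In mouse reads the 30 ribosomal proteins had a median of -0.47, which was -0.04 without Vehicle 3 and -0.31 without Combination 1, and all 30 have more human than mouse reads. With the share of ribosomal RNA reads as a covariate 1018 human genes had an unadjusted p under 0.05 for the departure in limma, against 1070 without it. In mouse 526 genes did, against 617 without it. Beyond this, the part of RNA quality in these departures was not tested.

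Immune genes of the host are given by cell type. Of 24 tested macrophage genes 21 had a positive departure, with a median of 0.32, and 3 were positive and 1 negative at an unadjusted p under 0.05 in limma (background 2.24% and 2.98%). The median was 0.14 without nintedanib responder 3, 0.19 without Vehicle 1, 0.54 without Vehicle 3 and 0.52 without Combination 1. It was also 0.52 without the 4 libraries rich in ribosomal RNA, where 7 were positive at that p. Emr1, the surface receptor used as a macrophage marker, measured 683, 840, 937 and 1012 in vehicle and 320, 423, 426 and 470 in alpelisib. It measured 489, 622, 676, 684 and 809 in nintedanib and 531, 532, 533 and 634 in the combination. Alpelisib lay below every tumour of the other arms. The departure was 0.86 ± 0.27 (SE, limma adjusted p = 0.814). Csf1r, the receptor for the macrophage growth factor, had 0.60 and Itgam, an integrin of myeloid cells, had 0.96. Fyb and Gpr65, an adaptor protein and a proton-sensing receptor of blood cells, were among the 6 positive genes with the smallest p, at 1.16 and 1.14.

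Ly6c2, a marker of inflammatory monocytes in the same list, went the other way. It measured 37.5, 43.6, 45.5 and 86.6 in vehicle, 75.2, 96.3, 96.5 and 145 in alpelisib, and 49.2, 65.0, 83.5 and 162 in the combination. In nintedanib it measured 92.8, 112, 120, 394 and 670. All nintedanib tumours lay above all vehicle tumours, and 2 of them far above the rest. The departure was -2.28 ± 0.71 (SE, limma adjusted p = 0.814).

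Interferon response genes had a negative departure in 26 of 30 cases in mouse, with a median of -0.45, and 6 of the 30 had an unadjusted p under 0.05 in limma, all negative (background 2.98%). Of the 30 genes 23 have more human than mouse reads. The human list of 36 had a median of -0.11 with 22 negative, where 7840 of all 14533 tested human genes were negative. With the 4 libraries rich in ribosomal RNA left out the medians were -0.64 in mouse and 0.01 in human, and without nintedanib responder 1 the mouse median was -0.30. Cxcl10, a chemokine that interferon induces, measured 101, 115, 250 and 442 in vehicle and 123, 126, 188 and 194 in alpelisib. It measured 77.9, 170, 237, 469 and 639 in nintedanib and 27.1, 49.3, 64.1 and 88.5 in the combination. The combination lay below all vehicle and all alpelisib tumours and overlapped 1 nintedanib tumour. The departure was -1.93 ± 0.76 (SE, limma adjusted p = 0.814), and Isg15, a ubiquitin-like protein, had -1.53. Tnf, the inflammatory cytokine, had -1.46 and measured 14.8 to 27.9 in the combination, below all 5 nintedanib tumours at 49.1 to 77.4. The 21 tested genes of the list of inflammatory chemokines were mixed, with 13 negative and 8 positive. Their median departure was -0.26, and -0.03 without nintedanib responder 1.

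Ccr7, the receptor that guides mature dendritic cells to lymph nodes, and Ccl22, a chemokine these cells make, were among the 6 negative mouse genes with the smallest p. Their departures were -1.88 ± 0.51 and -2.27 ± 0.63 (SE). Ccl22 measured 31.6, 34.4, 34.9 and 39.2 in the combination and 77.9, 105, 113, 114 and 317 in nintedanib. It measured 40.5, 59.0, 74.3 and 109 in alpelisib and 24.8, 36.8, 41.3 and 149 in vehicle. The combination lay below both single-drug arms and overlapped vehicle. A list of genes of mature dendritic cells was drawn up only after these values were seen, so it is no separate support for them. All 11 of its genes were negative, with a median of -0.80, where 6281 of all 11831 tested mouse genes were negative. Of the 11 genes 7 have more human than mouse reads. Over the 22 genes of NK, T and dendritic cells 18 were negative, with a median of -0.74. It was -0.34 without Vehicle 2, -0.42 without nintedanib non-responder 2, -0.48 without Alpelisib 1, -1.12 without Vehicle 4 and -1.17 without the 4 libraries rich in ribosomal RNA. The level of that list in nintedanib ran from -0.56 to 2.71, and in the combination from -0.67 to 0.13.

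Several further host genes had departures among those with the smallest p, all with an adjusted p of 0.814 in limma. Adamts1, a secreted protease of the matrix, measured 175, 181, 218 and 664 in vehicle, 112, 137, 179 and 180 in alpelisib, and 110, 204, 205 and 312 in the combination. In nintedanib it measured 64.1, 82.0, 95.3, 102 and 105, below every tumour of the other arms. The departure was 1.93 ± 0.50 (SE), and 1.48 without Vehicle 3, the tumour at 664. Slc13a3, a dicarboxylate transporter, measured 49.2, 104, 111 and 113 in the combination, against 52.8 to 76.8 in vehicle, 29.5 to 60.3 in alpelisib and 29.8 to 84.3 in nintedanib. In 3 of its 4 combination tumours the level was above every tumour of the other arms, and the departure was 1.79 ± 0.44 (SE).

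Cttnbp2nl, a protein of the actin cytoskeleton, had 1.14 and Cadm1, an adhesion molecule, had 0.93. Exosc3, a subunit of the RNA exosome, had -1.10, Zfp503, a zinc finger protein, had -1.11, and H47 had -1.23. Per1, a clock gene that glucocorticoids induce, measured 142, 190, 245 and 277 in the combination, above all other tumours, of which the highest was at 131. Its nintedanib effect was 0.11 without alpelisib and 0.97 with it, a departure of 0.86 ± 0.38 (SE, limma adjusted p = 0.814). The list of glucocorticoid targets and metallothioneins had a median of 0.01, with 9 positive and 9 negative, and medians of 0.26 without Vehicle 3 and 0.35 without the 4 libraries rich in ribosomal RNA. Of its 18 tested genes 16 share a name with a human gene, and all 16 have more human than mouse reads. Heyl, a Notch target of mural cells, had -1.54, and the 16 genes of pericytes and mural cells had a median of 0.09, between -0.20 and 0.27 as single libraries were left out.

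Proliferation genes gave no common direction. The 36 human cell cycle genes had a median departure of -0.14 (0.02 without Vehicle 3), with medians of -0.28 for nintedanib both without and with alpelisib. CCNE1, the cyclin of S phase entry, had -0.75 and measured 118 to 177 in the combination against 139 to 260 in nintedanib, which overlap. The 35 mouse cell cycle genes had a median of 0.11, between -0.07 and 0.32 as single libraries were left out, and all 35 have more human than mouse reads. The 18 skeletal muscle genes had a median of 1.59, with 0 at an unadjusted p under 0.05 in limma, and this value rested on single tumours. It was 0.05 without Combination 2, 0.34 without Vehicle 1, 0.80 without nintedanib responder 2, 2.48 without Alpelisib 1, 2.81 without Vehicle 3, 3.04 without nintedanib non-responder 1 and 4.16 without the 4 libraries rich in ribosomal RNA. The list level was 3.99 in Combination 2 against -2.05 to -1.19 in the rest of its arm, 6.25 in nintedanib non-responder 1 and 5.02 in Vehicle 1. Adipocyte genes had -0.50 over 8 genes, and from -1.27 without Combination 2 to 0.23 without Vehicle 3.

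Each gene was also described by the arm whose mean lay farthest from the mean of the other 3. Among the 1070 human genes with an unadjusted p under 0.05 for the departure, this was vehicle in 526 (49.2%), alpelisib in 322 (30.1%), the combination in 187 (17.5%) and nintedanib in 35 (3.27%). Over all tested human genes the shares were 48.9%, 19.9%, 23.4% and 7.73%. Vehicle was thus the arm apart about as often as in all genes. In mouse the shares of the 617 genes were 35.7% for vehicle, 25.6% for alpelisib, 23.7% for the combination and 15.1% for nintedanib, against 40.3%, 19.3%, 23.5% and 17% over all tested genes.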

How the data were processed

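PolyA RNA of 17 tumours was sequenced in paired 75-bp reads, per the labels' protocols. Bowtie, TopHat and DESeq2 with builds hg19 and mm10 are named, without versions, per the submitters' processing notes; the counter, annotation and strand setting are not given in the sources used here, so overlapping and antisense genes are uncertain. The deposited values are gene counts divided by a size factor per library (a normalized signal), in 1 table per species. Whole reads could be recovered for 100% of values in both tables (within 0.001 of a whole number), and edgeR 4.0.16 and DESeq2 1.42.0 were run on them as alternatives.

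Genes with a mean of at least 10 were fitted with limma 3.58.1 (trend, R 4.3.3) on log2(value + 1) with 4 arm means, and p-values were adjusted over all tested genes. The pipeline was tested on simulated data. Named genes were the 6 with the smallest p in each direction and species with an arm mean of at least 50, the 2 with the smallest p per list, fixed targets and genes that passed in a single-drug contrast. PDCD4, GADD45A, DUSP6, EGR1, CCND1, Csf1r and Itgam stand as further list members, some chosen after their values were seen. The question, the members and the lists were chosen with earlier results of these data known.

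Same-numbered tumours of different arms correlated above 0.1 in 7 of 27 pairs in human and 5 of 27 in mouse. Differently numbered tumours did so in 32 of 81 pairs in human and 28 of 81 in mouse, so numbers were not used as pairs. Alternatives covered scaling, pseudocount, filter, tool, library weights, responder titles, libraries left out, the ribosomal RNA share as a covariate and a replicate block.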

Additional observations from a re-analysis of the deposited data

Results flagged for a closer look

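In 33 of 372 groups of 4 or 5 tumours 1 tumour lay apart from the others by Dixon's criterion (8.87%). Chance gives about 1 in 20 for independent groups. The groups here are named genes in the same tumours, many of them named for a small p. They are not independent, so the comparison with 1 in 20 is not a test. Alpelisib 1 was the tumour apart in 11 of them. In mouse it lay below the other 3 alpelisib tumours for Dll4 (79.4 normalized counts, others from 232), Notch4 (104, others from 273), Mmrn2 (80.9, others from 189.9), Bcl6b (35.8, others from 99.5), Apold1 (28.0, others from 65.5), Exoc3l (28.0, others from 76.9), Pcdh12 (31.1, others from 55.1) and Spry4 (15.6, others from 56.6). It lay above them for Clca5 (46.7, others up to 35.8). In human it lay below them for CSRP2 (715, others from 1216) and TM4SF1 (1274, others from 2416).

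In vehicle, Vehicle 4 stood above the others for KRTDAP (3368, others up to 1284), KRT10 (2607, others up to 1307) and mouse Spry2 (86.2, others up to 69.8), and below them for Fyb (319, others from 488). Vehicle 3 stood above for Adamts1 (664, others up to 218) and Klf9, a glucocorticoid target (45.9, others up to 19.6). Vehicle 2 stood below for Afap1l1 (97.8, others from 147).

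In the combination, Combination 1 stood apart for ETV4 (86.8, others from 112), Slc13a3 (49.2, others from 104), Emr1 (634, others up to 533) and Pdgfrb (989, others up to 537). Combination 2 stood below for PIK3CA (297, others from 559) and above for Nes, an intermediate filament of activated vessels (137, others up to 72.3). Combination 3 stood above for Prc1, a mitotic gene (38.1, others up to 21.2), and below for D930048N14Rik (2.46, others from 4.64). Combination 4 stood below for Erg, an endothelial transcription factor (12.5, others from 32.2).

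In nintedanib, the tumour titled responder 1 stood above for IL24 (113, others up to 16.9) and SPRY2 (322, others up to 188). The tumour titled responder 3 stood above for ERBB3 (1319, others up to 1046). The tumour titled non-responder 2 stood above for Ccl22 (317, others up to 114) and below for Spry4 (8.47, others from 19.6). In alpelisib, Alpelisib 2 stood above for Gpr65 (122, others up to 66.9). What sets these single tumours apart was not tested.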

How the results depend on the processing

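No gene passed for the departure in either species under any alternative run. The count at an unadjusted p under 0.05 in limma was 2922 in human with library weights and 354 with the 4 libraries rich in ribosomal RNA left out. In mouse it was 988 without a filter, 358 with the tumours titled responders alone and 338 without the 4 libraries. Without a filter 20529 mouse genes were tested, so the share was 4.81%, against 5.22% of 11831 in the main fit. Leaving out single libraries gave 514 to 2342 in human and 324 to 1194 in mouse. With the replicate block these counts were 1053 and 751.

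The 21 mouse genes of nintedanib minus vehicle became 13 without a filter and with a mean of at least 50, 2 without the 4 libraries and 11 with the replicate block, and 8 to 32 as single libraries were left out (0 to 3 in human). The 1 gene of combination minus alpelisib became 0 in those same 4 fits and 0 to 12 without single libraries. The 1 gene of combination minus nintedanib became 0 with TMM scaling, a pseudocount of 5, a mean of at least 50, 5 group means and the replicate block, 2 without a filter, 8 without the 4 libraries and 0 to 5 without single libraries. In alpelisib minus vehicle single libraries left out gave 0 to 1. The causes were not tested.

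Departures near 0 changed sign. With the tumours titled non-responders alone VEGFA was at 0.0056, Apln at 0.13, Pdgfrb at 0.36 and mouse Fgfr1 at 0.28, and with responders alone Flt1 was at -0.023. With library weights FGFR1 was at 0.070, Flt1 at -0.47, Afap1l1 at -0.12 and Exoc3l at -0.031. Exoc3l was at -0.011 in edgeR, -0.014 in DESeq2 and -0.069 on a linear scale, Apln at 0.12 on a linear scale, and Flt1 at -0.16 without the 4 libraries. Without single libraries the ranges were -0.042 to 0.46 for Afap1l1, -0.62 to 0.20 for Apln, -0.27 to 0.25 for Exoc3l, -0.34 to 0.29 for Flt1 and -0.032 to 0.44 for Notch4. List medians on a linear scale were not run.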
